A study of Mus musculus with 31 samples.

Results

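The 8 genes described here are Peg3, Zim1 and Usp29 of the imprinted Peg3 domain and Snrpn, Ndn, Magel2, Mkrn3 and Peg12 of the imprinted Snrpn-Ndn domain, both on mouse chromosome 7. They were taken by symbol from the 2 deposited tables, in each of which 8 of 38283 rows carry these names. RNA-seq values in FPKM (fragments mapped to a gene, scaled by transcript length and by library size) were compared in 21 of the 31 samples of the series, and the others were not analysed here. All samples are from pancreata of C57BL/6 mice at postnatal day 2, divided on a cell sorter into mesenchymal cells, which carry YFP, and non-mesenchymal cells, which do not.

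Each of the 6 groups with values carries a Cre recombinase at Nkx3.2, a gene of the mesenchyme around the developing gut, so the controls carry Cre too. In the H19DMD model, controls were H19DMD+/+; Nkx3.2+/Cre and mutants were H19DMDfl/+; Nkx3.2+/Cre, and each fraction has 3 libraries of controls and 4 of mutants. H19DMD is the imprinting control region that acts on both Igf2 and H19. In the Igf2 model, controls were Igf2+/+; Nkx3.2Cre/+ and mutants were Igf2+/fl; Nkx3.2Cre/+, and the non-mesenchymal fraction has 4 libraries of controls and 3 of mutants. The YFP allele is not named in the genotypes, and no label says whether libraries came from separate animals, so p-values measure only the spread between these libraries, which may be technical. The 2 models are in tables of their own, and tests were made within a table.

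An imprinted gene is expressed mainly from the allele of a single parent, chosen by DNA methylation that is set in the germ line at a control region. In the Peg3 domain, Peg3 and Usp29 are known as paternally expressed and Zim1 as maternally expressed. In the Snrpn-Ndn domain, the mouse counterpart of the human Prader-Willi region, Snrpn, Ndn, Magel2, Mkrn3 and Peg12 are known as paternally expressed, and these genes have been studied mostly in brain. The tables do not separate the parental alleles, so a value is the sum over both.

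Peg3 and Usp29 start 163 bases apart on opposite strands, and the stretch between them that lies outside annotated exons is shown because it lies before both genes while their levels differ widely. It spans chr7:6730463-6730558 (GRCm38.p6, RefSeq) and is printed 5′ to 3′ on the strand of Peg3. Capitals mark CCAAT in either orientation, the letters of the CCAAT box, a common promoter element.
Peg3: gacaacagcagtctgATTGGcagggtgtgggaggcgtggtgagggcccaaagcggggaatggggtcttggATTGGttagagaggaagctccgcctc
The stretch holds 2 such matches, and 33.8% of the 32851 RefSeq windows of 250 bases before a gene start hold at least 1 on either strand.

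The stretches before Zim1 and Magel2 are shown for their differences between the sorted fractions. Zim1 had the largest difference among the members tested on the log2(FPKM + 1) scale, a place that depends on the 1 added. Magel2 was listed at or near 0 outside mesenchymal cells of the H19DMD model. The stretch before Zim1 is chr7:6696541-6696682 on the minus strand, outside annotated exons, and that before Magel2 is chr7:62376729-62376978 on the plus strand. Capitals mark GGGCGG, the GC box.
Zim1: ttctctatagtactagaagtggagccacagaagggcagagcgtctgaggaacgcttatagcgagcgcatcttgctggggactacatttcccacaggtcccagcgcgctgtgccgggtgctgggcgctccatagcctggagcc
Magel2: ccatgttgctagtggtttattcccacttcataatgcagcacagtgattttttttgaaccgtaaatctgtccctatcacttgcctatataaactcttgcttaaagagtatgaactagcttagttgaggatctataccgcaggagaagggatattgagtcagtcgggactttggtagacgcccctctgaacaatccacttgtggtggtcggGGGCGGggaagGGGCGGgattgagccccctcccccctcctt
GGGCGG on either strand is present in 32.7% of the windows of 250 bases. It occurs 2 times in the window of Magel2 and 1 time in that of Zim1, where the match lies outside the stretch printed.

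Ndn and Snrpn are shown together because both hold CGCATGCG, the letters of the core recognised by the factor NRF1, near a start, while their levels between fractions were unlike. The letters were picked after the sequences had been looked at. For Ndn only the match with short flanks is given, chr7:62348244-62348271 on the plus strand, since GENCODE M21 places these bases in the Ndn exon. For Snrpn the stretch before the start at the upper end of its row is given, chr7:60140226-60140475 on the minus strand. Capitals mark CGCATGCG, which reads the same on both strands.
Ndn: cttcccaacaCGCATGCGcaatatcgca
Snrpn: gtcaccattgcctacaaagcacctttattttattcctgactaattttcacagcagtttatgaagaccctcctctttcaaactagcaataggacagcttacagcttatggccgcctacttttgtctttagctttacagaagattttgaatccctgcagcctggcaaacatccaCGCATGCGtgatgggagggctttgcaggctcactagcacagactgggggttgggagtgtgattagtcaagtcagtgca
CGCATGCG is present in 1.55% of the windows, in the Ndn window and in 3 of the 4 Snrpn windows. These 3 Snrpn windows are much alike in sequence around the match, so they are not separate occurrences. None of the 4 Snrpn starts was matched to a GENCODE transcript. No match of the 3 motifs is evidence of binding, and binding was not measured here.

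By the deposited positions (GRCm38, chromosome 7), the Peg3 row spans 6703892 to 6730421 and the Zim1 row 6675443 to 6696450, both on the minus strand and both annotated as protein-coding. The Usp29 row spans only 6961160 to 6963769, while GENCODE M21 gives the gene 6730578 to 6967219 on the plus strand, so reads from its other exons may not be in the value. The Ndn row spans 62348277 to 62349928 and the Magel2 row 62376979 to 62381640 on the plus strand, and the Mkrn3 row spans 62417593 to 62420139 and the Peg12 row 62461871 to 62464510 on the minus strand. The Snrpn row spans 59982495 to 60140219 on the minus strand. A separate row for Snurf, the upstream reading frame of the same transcript, has the same positions, so how reads were split between the pair is uncertain. The Snrpn row's identifier is named Gm38393 in GENCODE M21, where Snrpn has another identifier at the same positions as the row.

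The sort and the targeted locus were checked first. The summed FPKM of 12 mesenchymal markers was 5769 to 7442 in mesenchymal libraries and 164 to 460 in non-mesenchymal libraries of both models, and that of 11 acinar markers was 565 to 1784 and 29455 to 104808. In the H19DMD model endothelial markers were also higher in mesenchymal libraries, at 55 to 67.1 against 17.8 to 34.9 in controls and 30.1 to 111 against 19.1 to 26.3 in mutants. Endocrine, ductal, leukocyte, erythroid, and neural and glial sums were lower there. The part of endothelial cells in the member values was not tested. In mesenchymal cells Igf2 was 3648 to 4024 FPKM in H19DMD controls and 6162 to 7923 in mutants, and H19 was 2437 to 2454 in controls and 565 to 835 in mutants. Outside the mesenchymal fraction of this model, Igf2 stood at 45.2 to 53.2 FPKM in controls and 45.4 to 157 in mutants, and H19 at 26.2 to 34.8 and 14.6 to 32.4. In non-mesenchymal cells of the Igf2 model Igf2 was 71.5 to 144 FPKM in controls and 25 to 147 in mutants. The deposited values give no read counts, so the depth is unknown. A library had 17476 to 20918 features above 0, and an exact 0 is described as listed at 0.

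Peg3 encodes a zinc finger protein that binds DNA and has been linked to p53-dependent cell death and TNF signalling. Peg3 was the highest of the 8 genes in all 6 groups, and FPKM, being per length, allows this comparison between genes. In mesenchymal cells it was 456, 536 and 497 FPKM in the H19DMD controls and 472, 518, 521 and 669 in the mutants. In non-mesenchymal cells of that model it was 196, 179 and 220 in controls and 194, 230, 210 and 201 in mutants. In the Igf2 model the non-mesenchymal values were 213, 202, 234 and 230 in controls and 256, 149 and 180 in mutants. Every mesenchymal library was above every non-mesenchymal library, and controls and mutants overlapped in each fraction. Among protein-coding genes listed above 0, Peg3 stood at percentile 99.5 to 99.7 in mesenchymal libraries and 97.7 to 99.0 in non-mesenchymal ones.

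Zim1, the maternally expressed zinc finger neighbour of Peg3, was by the deposited rows the second highest member in every group, with the limit that the Snrpn row may lack reads counted to Snurf, and differed far more between the fractions. Its mesenchymal values were 172, 205 and 142 FPKM in the H19DMD controls and 141, 157, 175 and 204 in the mutants. Its non-mesenchymal values were 7.02, 7.74 and 7.92 in those controls and 7.81, 11, 5.76 and 6.04 in those mutants. Igf2-model values were 8.48, 8.27, 8.59 and 8.82 in controls and 11.6, 9.06 and 9.68 in mutants. The lowest mesenchymal library was thus many times above the highest non-mesenchymal library of either model, and in the Igf2 model the 3 mutants were above all 4 controls.

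Usp29, a gene of the ubiquitin-specific protease family, was near the lower limit of the filter. Its mesenchymal values were 1.53, 2.11 and 1.10 FPKM in the H19DMD controls and 0.946, 1.86, 1.70 and 1.02 in the mutants. Non-mesenchymal values of that model were 0.383, 0.976 and 0.732 in controls and 0.715, 0.401, 0.155 and 0 in mutants, below the mesenchymal libraries of the same genotype with no overlap. Values of the Igf2 model were 0.435 to 2.00 in 4 controls and 0.0761, 0.217 and 1.66 in mutants, which overlap. Peg3 at a mean of 496.2 ± 40.4 FPKM (SD, n = 3) and Usp29 at 1.58 ± 0.509 (SD, n = 3) in mesenchymal controls are the pair that starts within 163 bases of each other, with the limit that the Usp29 row covers part of the gene.

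Ndn encodes necdin, a protein of the MAGE family that restrains cell proliferation and binds E2F1. In mesenchymal cells it was 42.7, 49.8 and 79.1 FPKM in the H19DMD controls and 84.7, 48.6, 35.0 and 85.7 in the mutants. In non-mesenchymal cells it was 6.59, 6.75 and 5.95 in those controls and 7.76, 8.68, 4.19 and 4.12 in those mutants. Igf2-model values were 10.6, 3.08, 8.59 and 8.79 in controls and 7.33, 5.72 and 6.17 in mutants. The fractions did not overlap. Mesenchymal libraries of 1 genotype spread widely, with a coefficient of variation of 33.7% in controls and 40.5% in mutants, against 8.1 and 15.7% for Peg3.

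Magel2, another MAGE family gene, whose protein acts with Trim27 and Vps35 in endosomal recycling, was low in mesenchymal cells and at or near 0 elsewhere. It was 2.60, 4.02 and 2.43 FPKM in mesenchymal H19DMD controls and 3.84, 4.70, 1.88 and 4.4 in mutants. It was listed at 0 in all 3 non-mesenchymal H19DMD controls and was 0.0507, 0.0676, 0 and 0.0782 in the mutants. In the Igf2 model it was 0.038, 0.0602, 0 and 0.0571 in non-mesenchymal controls and 0.507, 0.25 and 0.568 in mutants. The fractions did not overlap, and the Igf2 mutants were above their controls while still far below the mesenchymal libraries.

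Peg12, a FRAT family gene whose relatives bind the kinase GSK3 in Wnt signalling, also had every mesenchymal library above every non-mesenchymal one. It was 1.44, 1.29 and 2.28 FPKM in mesenchymal H19DMD controls and 1.68, 0.700, 0.805 and 1.44 in mutants. Outside the mesenchymal fraction of that model 5 of 7 libraries were listed at 0 and the other 2 were at 0.102 and 0.0958. Values of the Igf2 model were 0.219 to 0.410 in controls and 0.0776 to 0.321 in mutants, which overlap.

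Mkrn3, a makorin ubiquitin ligase known for restraining the onset of puberty, did not separate the fractions. It ranged from 0 to 0.922 FPKM in the 7 mesenchymal libraries and from 0 to 0.464 in the 7 non-mesenchymal libraries of the H19DMD model. Values of the Igf2 model were 0.305, 0.221, 1.88 and 0.315 in controls and 0.0736, 0.162 and 0 in mutants. These mutants were all below their controls, and 1 control was far above the other 3.

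Snrpn encodes SmN, a spliceosomal Sm protein that is abundant in neurons, and it was the only tested member with a lower mean in mesenchymal than in non-mesenchymal cells. It was 1.91, 1.78 and 4.10 FPKM in mesenchymal H19DMD controls and 2.19, 2.43, 2.08 and 0 in mutants. It was 5.27, 2.64 and 3.05 in non-mesenchymal controls and 3.14, 4.23, 2.89 and 2.59 in mutants. In the Igf2 model it was 7.44, 3.50, 9.33 and 7.73 in controls and 9.08, 7.45 and 4.29 in mutants. The fractions overlapped in controls and not in mutants, where 1 mesenchymal library is listed at 0. The Snurf row was higher, at 42.42 ± 37.0 FPKM (SD, n = 3) in non-mesenchymal and 27.2 ± 25.8 (SD, n = 3) in mesenchymal controls, and was listed at 0 in 1 mesenchymal control and 1 mesenchymal mutant. The neural and glial marker sum, over 9 genes, was 6.73 to 15.6 in mesenchymal and 27.1 to 74.8 in non-mesenchymal libraries of the H19DMD model. Of the 9 genes, 3 averaged above 1 FPKM in mesenchymal controls and 3 in mesenchymal mutants. In all libraries of these groups 4 and 2 were at 0, with Sox10 among them in both. The part of neural and glial cells in the Snrpn values was not tested.

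**Figure D1:**
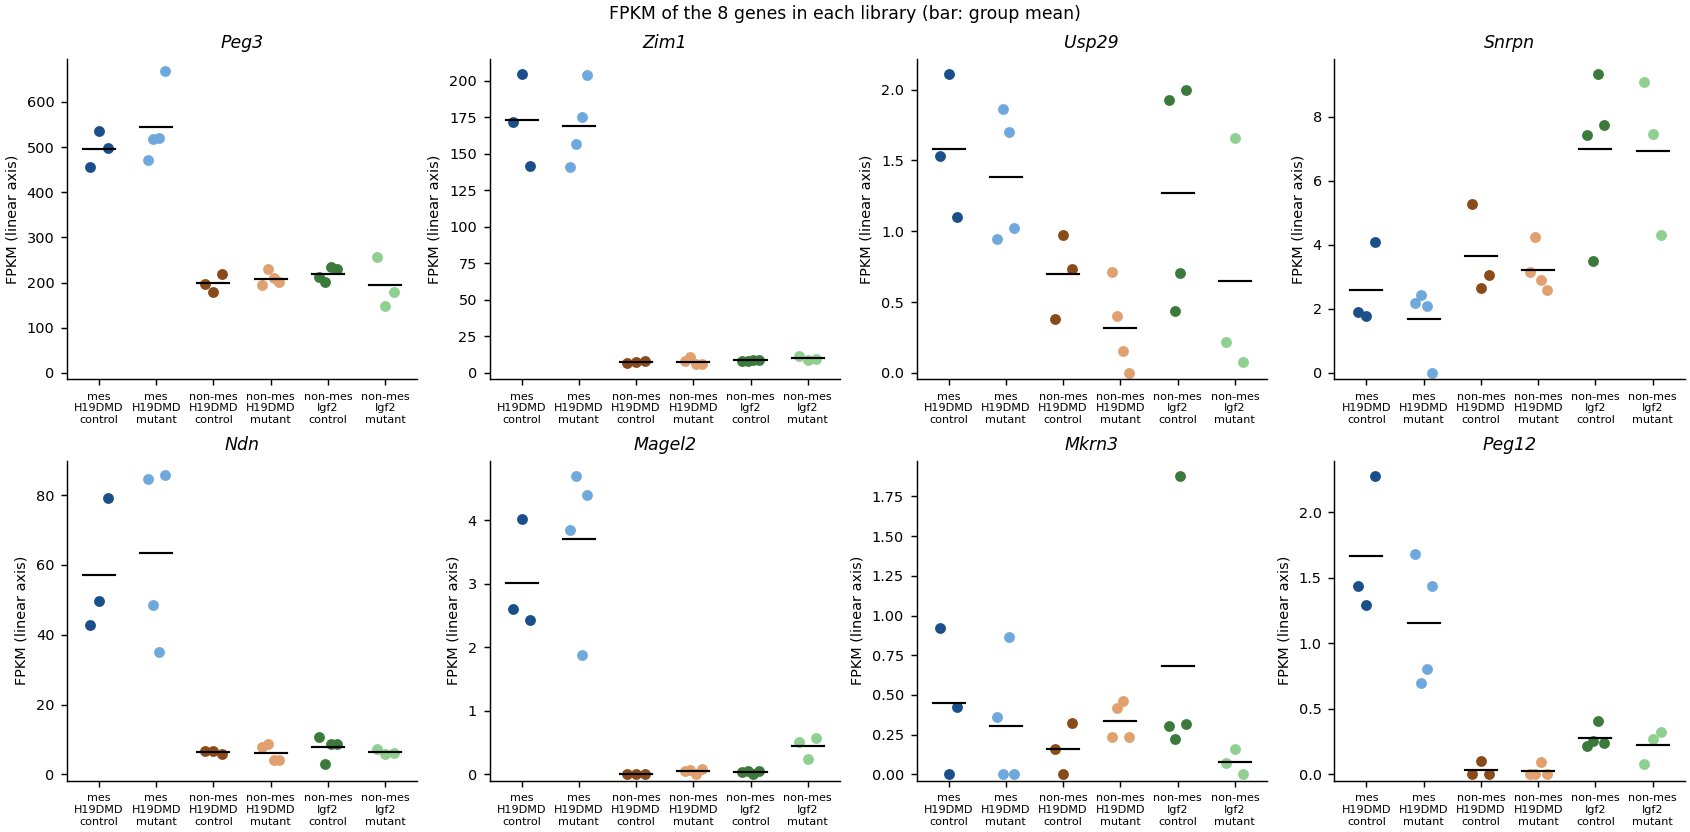
FPKM (linear axes) of the 8 genes in each of the 21 libraries, 1 point per library and a bar at the group mean, for mesenchymal (mes) and non-mesenchymal (non-mes) cells of both models. Peg3, Zim1, Ndn, Magel2 and Peg12 were higher in every mesenchymal library than in any non-mesenchymal library, while Usp29, Snrpn and Mkrn3 overlapped.

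The order of the members by mean FPKM in mesenchymal controls was Peg3 at 496.2, Zim1 at 173, Ndn at 57.19, Magel2 at 3.015, Snrpn at 2.596, Peg12 at 1.669, Usp29 at 1.58 and Mkrn3 at 0.4481. The ranges of Peg3, Zim1 and Ndn did not overlap with that of the next gene in the order. Those of Magel2, Snrpn and Peg12 overlapped with the next, and those of Usp29 and Mkrn3 did not overlap. In non-mesenchymal controls of the H19DMD model Peg3 was at 198.5, followed by Zim1 at 7.56, Ndn at 6.429 and Snrpn at 3.654, without overlap between neighbours. In the other 3 non-mesenchymal groups the ranges of Zim1, Ndn and Snrpn overlapped between neighbours in the order. The place of Snrpn depends on how reads were split with Snurf, whose mean was 42.42 FPKM in the non-mesenchymal H19DMD controls.

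The comparison of the sorted fractions asks where in the newborn pancreas these genes are expressed. Peg3, Zim1, Ndn and Magel2 were higher in mesenchymal cells, in controls and in mutants of the H19DMD model. By limma on log2(FPKM + 1), with p-values adjusted by the Benjamini-Hochberg method over all features averaging 1 FPKM or more, Peg3, Zim1 and Ndn, which average 1 FPKM or more in both fractions, were called higher in both genotypes. Snrpn, which also does, was not called. Magel2 was called too, but it passed the filter only through the mesenchymal group where it is high, as did Usp29 in controls, which was not called. Usp29 in mutants and Mkrn3 and Peg12 in both genotypes were below the filter. Among all features tested, 12.4% were called higher in mesenchymal cells in controls and 13.5% in mutants. In bulk samples, fewer cells of a type and less RNA per cell cannot be told apart.

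On the log2(FPKM + 1) scale Zim1 had the largest difference of the tested members. The Zim1 mean was 22.9-fold higher in mesenchymal cells of controls and 22.1-fold higher in those of mutants, with log2 differences of 4.33 ± 0.19 (SE, limma adjusted p = 0.000102) and 4.32 ± 0.22 (SE, limma adjusted p = 5.23e-06). Ndn was 8.9-fold higher in controls and 10.3-fold higher in mutants, at 2.92 ± 0.26 (SE, limma adjusted p = 0.000831) and 3.13 ± 0.36 (SE, limma adjusted p = 0.000333). The estimates of both genes were thus near each other in the 2 genotypes. The test of whether the difference depended on genotype gave -0.01 ± 0.30 for Zim1 (SE, 95% interval -0.66 to 0.65). For Ndn it gave 0.21 ± 0.49 (SE, 95% interval -0.86 to 1.28), too wide to show sameness. Peg3 was 2.5-fold higher in controls and 2.61-fold higher in mutants, at 1.32 ± 0.17 (SE, limma adjusted p = 0.00288) and 1.37 ± 0.15 (SE, limma adjusted p = 0.000235).

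Magel2, which entered the test only because its mesenchymal level lifted its mean over the filter, differed by 1.98 ± 0.30 on the log2(FPKM + 1) scale in controls (SE, limma adjusted p = 0.00564), where no fold is given because the non-mesenchymal libraries are listed at 0, and by 2.12 ± 0.29 in mutants (SE, limma adjusted p = 0.000929), where its mean was 75.4-fold higher in mesenchymal cells, over a non-mesenchymal mean of 0.04913 FPKM with 1 of 4 libraries listed at 0. Two-sided exact permutation tests over libraries gave p = 0.1 for each of these 4 genes in controls and p = 0.0286 in mutants, the smallest values that 3 against 3 and 4 against 4 libraries allow. Adding 1 to FPKM before the log understates the difference of a gene as low as Magel2.

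The other members were below the filter or did not pass. Usp29 differed by 0.60 ± 0.31 in controls (SE, limma adjusted p = 0.237) and was below the filter in mutants, where its groups did not overlap. Snrpn differed by -0.39 ± 0.36 in controls (SE, limma adjusted p = 0.49) and by -0.79 ± 0.42 in mutants (SE, limma adjusted p = 0.202), or -0.37 ± 0.22 without the mesenchymal mutant library listed at 0 (SE, limma adjusted p = 0.273). Mkrn3 and Peg12 were below the filter in both. Over all 8 members, 6 were higher in mesenchymal cells without overlap of libraries in controls (Peg3, Zim1, Usp29, Ndn, Magel2 and Peg12), and the same 6 in mutants. Of all features above 0 in at least 1 library compared, 17.9% were higher in this way in controls and 10.9% in mutants.

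**Figure D2:**
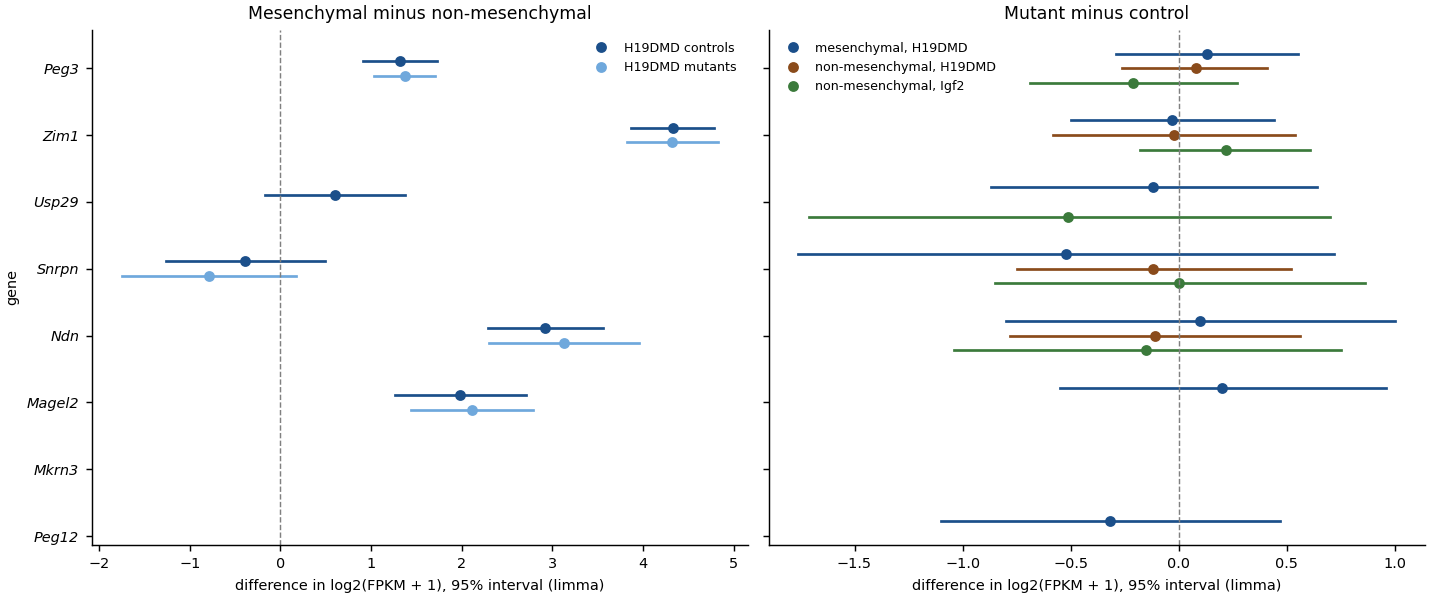
Differences in log2(FPKM + 1) with 95% intervals from limma, between mesenchymal and non-mesenchymal cells of the H19DMD model (left) and between mutants and controls in 3 comparisons (right); members below the filter on low values have no point, and Mkrn3 has none in any comparison. On the left the intervals of Peg3, Zim1 and Ndn lie above 0, as does that of Magel2, which passed the filter only through the mesenchymal group, and on the right every interval includes 0.

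How much of each gene was found outside the mesenchymal fraction differed among the members. In H19DMD controls the non-mesenchymal mean was 40% of the mesenchymal mean for Peg3, 44.1% for Usp29, 11.2% for Ndn, 4.37% for Zim1 and 2.03% for Peg12, and Magel2 was listed at 0. Snrpn was the highest, at 141% in controls and 192% in mutants, where 1 mesenchymal library is listed at 0. Among the mesenchymal markers Vim was at 16.4%, and the others were between 0 (Barx1) and 1.99% (Pdgfrb). In mutants Peg3 was at 38.3%, Usp29 at 23%, Ndn at 9.74%, Zim1 at 4.53%, Peg12 at 2.07% and Magel2 at 1.33%. Vim was at 20.2% there and the other markers were between 0 (Nkx3-2) and 2.92% (Pdgfrb). Snrpn, Peg3 and Usp29 were thus above every marker in both genotypes, and Ndn and Zim1 above every marker but Vim. Peg12 was near Pdgfrb in controls and, in mutants, below Pdgfrb, Mfap4 at 2.12% and Barx1 at 2.11%, and Magel2 was within the range of the markers. The part of mesenchymal cells left in the non-mesenchymal sort was not tested.

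**Figure D3:**
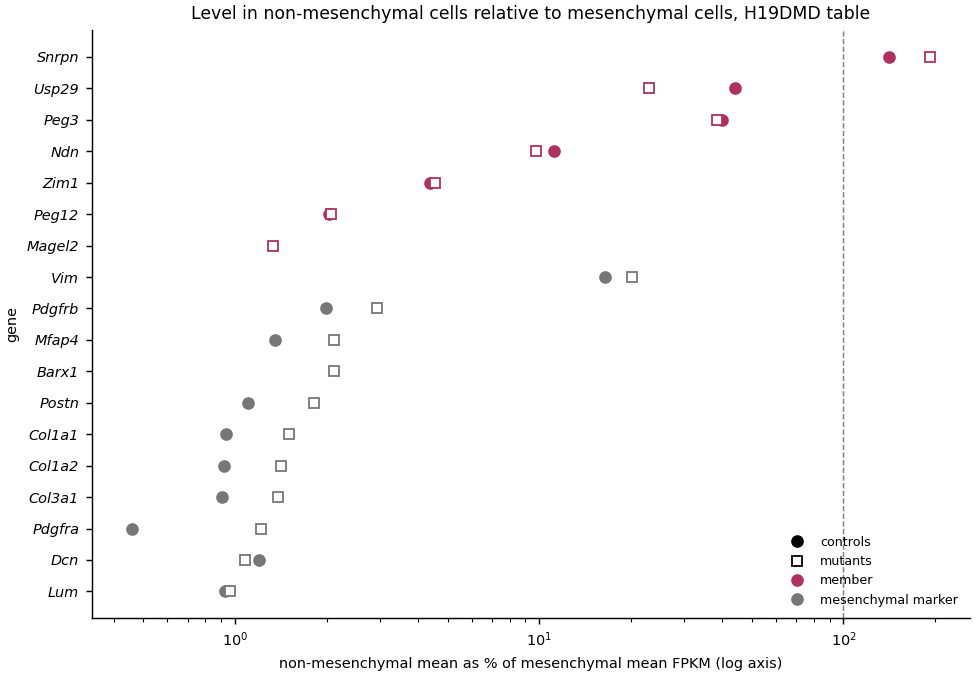
Mean FPKM in non-mesenchymal cells as a percentage of the mean in mesenchymal cells (log axis) for members (red) and mesenchymal markers (grey) in H19DMD controls (filled circles) and mutants (open squares); the dashed line marks equal levels and values of 0 have no point. Peg3 is at 40 and 38.3%, whereas Col1a1 is at 0.935 and 1.5%.

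Within a library, the 2 neighbours Zim1 and Peg3 were in different proportions in the 2 fractions. The ratio of their FPKM was 0.285 to 0.382 in the 7 mesenchymal libraries and 0.0274 to 0.048 in the 7 non-mesenchymal libraries of the H19DMD model. In the Igf2 model it was 0.0367 to 0.0409 in controls and 0.0456 to 0.061 in mutants, with no overlap. The ratio of Ndn to Peg3 was 0.0671 to 0.179 in mesenchymal and 0.0152 to 0.0498 in all non-mesenchymal libraries. The ratio of Magel2 to Ndn was 0.0307 to 0.0968 in mesenchymal libraries, 0 to 0.0196 in non-mesenchymal libraries other than the Igf2 mutants, and 0.0437 to 0.0921 in those mutants. A ratio shows an unequal difference between 2 genes and not which of them moved.

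**Figure D4:**
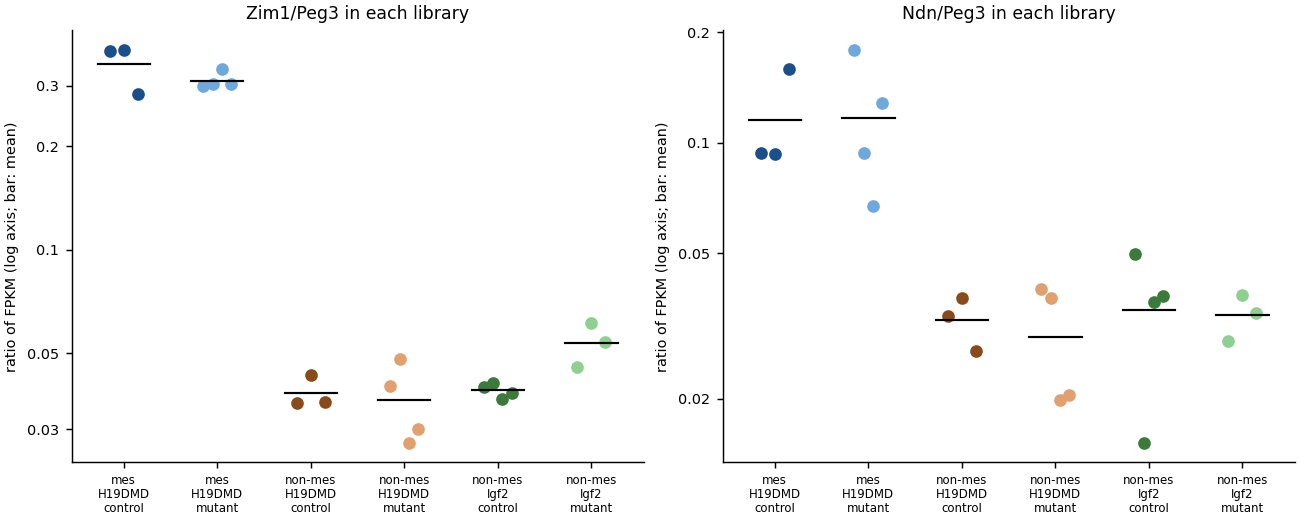
Ratio of FPKM of Zim1 to Peg3 (left) and of Ndn to Peg3 (right) in each library (log axes), with a bar at the group mean, for mesenchymal (mes) and non-mesenchymal (non-mes) cells. Zim1 to Peg3 is 0.285 to 0.382 in mesenchymal libraries and at most 0.061 in the others.

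The comparison of mutants with controls asks whether a change at Igf2 or H19DMD in mesenchymal cells was accompanied by a change of these other imprinted genes. No member passed the threshold in any of the 3 comparisons, of 7 tested in mesenchymal cells of the H19DMD model, 4 in its non-mesenchymal cells and 5 in the non-mesenchymal cells of the Igf2 model. With limma, 0 members had an unadjusted p under 0.05 in each of the 3, beside 4.76, 5.35 and 5.28% of all features tested in these comparisons. Among all features tested, 0.0694, 0.0677 and 0.0631% were called, 11 features in each comparison, so that 0 of a handful of genes is near the background. In mesenchymal cells of the H19DMD model, H19 was called at -1.82 ± 0.19 (SE, limma adjusted p = 0.0458). Igf2, whose libraries did not overlap either, was not called at 0.87 ± 0.21 (SE, limma adjusted p = 0.927). A member with a change of the size of that of Igf2 could thus be missed.

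In mesenchymal cells of the H19DMD model, Peg3 differed by 0.13 ± 0.18 between mutants and controls on the log2 scale (SE, limma adjusted p = 0.948), with a 95% interval from -0.29 to 0.55. Zim1 differed by -0.03 ± 0.20 (SE, limma adjusted p = 0.992, interval -0.50 to 0.44) and Ndn by 0.10 ± 0.38 (SE, limma adjusted p = 0.984, interval -0.80 to 1.00). The interval of Ndn was the widest of the 3. Magel2 was at 0.20 ± 0.32, Peg12 at -0.32 ± 0.33, Usp29 at -0.12 ± 0.32 and Snrpn at -0.52 ± 0.52 (SE, limma adjusted p = 0.927 to 0.977). The Snrpn value rests largely on the mutant library listed at 0, without which it was -0.10 ± 0.33 (SE, limma adjusted p = 0.968). The libraries of mutants and controls overlapped for all 8 members, while 4.7% of all features above 0 did not overlap.

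In non-mesenchymal cells of that model, Peg3 differed by 0.08 ± 0.14, Zim1 by -0.02 ± 0.24, Ndn by -0.11 ± 0.28 and Snrpn by -0.12 ± 0.27 (SE, limma adjusted p = 0.955 to 0.988). All 8 members overlapped between mutants and controls, and 4.77% of all features did not. The test of whether the genotype difference itself differed between the fractions called 0 of the 5 members tested, with 0 at an unadjusted p under 0.05, and 0.0117% of all features tested, of which 6.35% had an unadjusted p under 0.05. The estimates of that interaction were 0.05 ± 0.21 for Peg3, -0.01 ± 0.30 for Zim1, 0.21 ± 0.49 for Ndn, 0.13 ± 0.40 for Magel2 and -0.40 ± 0.59 for Snrpn (SE, limma adjusted p = 0.922 to 0.999). Without the mesenchymal mutant library at 0, that of Snrpn was 0.02 ± 0.39 (SE, limma adjusted p = 0.995).

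In non-mesenchymal cells of the Igf2 model, 3 of the 8 members did not overlap between mutants and controls, against 5.01% of all features above 0. Zim1 was at 10.13 ± 1.35 FPKM in mutants (SD, n = 3) and 8.539 ± 0.230 in controls (SD, n = 4). Its log2 difference of 0.22 ± 0.17 did not pass (SE, limma adjusted p = 0.919; 0.12 without mutant replicate 1), and the two-sided exact permutation test gave p = 0.0286, the smallest that 4 against 3 libraries allow and not adjusted for the number of genes. Magel2 was at 0.4414 ± 0.169 FPKM in mutants (SD, n = 3) and 0.03884 ± 0.0277 in controls (SD, n = 4), below the filter, with the same unadjusted exact permutation p of 0.0286.

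Mkrn3 was at 0.0784 ± 0.0809 FPKM in those mutants (SD, n = 3) and 0.6801 ± 0.801 in controls (SD, n = 4), below the filter, with an exact permutation p of 0.114. Peg3 differed by -0.21 ± 0.20, Ndn by -0.15 ± 0.38, Usp29 by -0.51 ± 0.51 and Snrpn by 0.00 ± 0.36 (SE, limma adjusted p = 0.919 to 0.999), and their libraries overlapped. The Peg3 value was -0.42 without mutant replicate 1 and -0.03 without mutant replicate 2. In these same libraries the summed FPKM of 11 acinar markers was 86550 to 98935 in mutants and 29455 to 42579 in controls. The sum of 7 ductal markers was 887 to 1094 in mutants and 1111 to 1518 in controls, also without overlap. The sums of the other lists overlapped, with leukocyte markers at 889 to 1311 in mutants and 645 to 936 in controls and endocrine markers at 9861 to 20625 and 6509 to 12904. Mesenchymal markers were at 229 to 460 in mutants and 226 to 431 in controls, and neural and glial markers at 55.8 to 73.3 and 26.6 to 133. Endothelial markers were at 30 to 101 in mutants and 13.4 to 112 in controls, and erythroid markers at 602 to 1774 and 727 to 4174. The part of the cell mixture in the Zim1, Magel2 and Mkrn3 values was not tested.

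The neighbours of the members were read from lists. Of 10 listed neighbours in the Peg3 domain, 4 were in the table and 2 were tested (Zfp28 and Zfp78), with 0 called between the fractions. Zfp28 differed by 0.54 ± 0.39 in controls (SE, limma adjusted p = 0.391). Of 18 listed neighbours in the Snrpn-Ndn domain, 14 were in the table and 11 tested, with 1 higher and 0 lower in mesenchymal cells in controls and 2 higher and 1 lower in mutants. These counts are near the shares of all features tested, of which 12.4% were higher and 10.3% lower in controls and 13.5% higher and 15.1% lower in mutants. The one higher in both was Atp10a, which encodes a phospholipid flippase, at 0.74 ± 0.20 (SE, limma adjusted p = 0.0494) and 0.66 ± 0.15 (SE, limma adjusted p = 0.0124). Nipa1, a magnesium transporter gene, was higher in mutants by 0.72 ± 0.20 (SE, limma adjusted p = 0.0317) and did not pass in controls at 0.80 ± 0.22 (SE, limma adjusted p = 0.0511). Klf13, a Krüppel-like factor gene, was lower in mutants at -1.08 ± 0.23 (SE, limma adjusted p = 0.00961) and did not pass in controls at -0.80 ± 0.23 (SE, limma adjusted p = 0.0591).

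Cyfip1, which had the highest level of these neighbours in mesenchymal controls, did not pass at 0.83 ± 0.24 in controls (SE, limma adjusted p = 0.054) and 0.53 ± 0.22 in mutants (SE, limma adjusted p = 0.108). Ube3a, the ubiquitin ligase gene next to Snrpn, did not pass, at 0.21 ± 0.16 in controls (SE, limma adjusted p = 0.424) and 0.18 ± 0.28 in mutants (SE, limma adjusted p = 0.676). The median difference of the 11 neighbours was 0.32 in controls and 0.07 in mutants, beside 0.080 and -0.032 over all features tested. Snurf had the widest error of these neighbours, at -1.37 ± 1.67 in controls (SE, limma adjusted p = 0.607) and -2.26 ± 0.99 in mutants (SE, limma adjusted p = 0.13). Of both neighbour lists, 0 genes were called in the mutant comparisons and in the interaction, and 0 had an unadjusted p under 0.05 by limma.

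**Figure D5:**
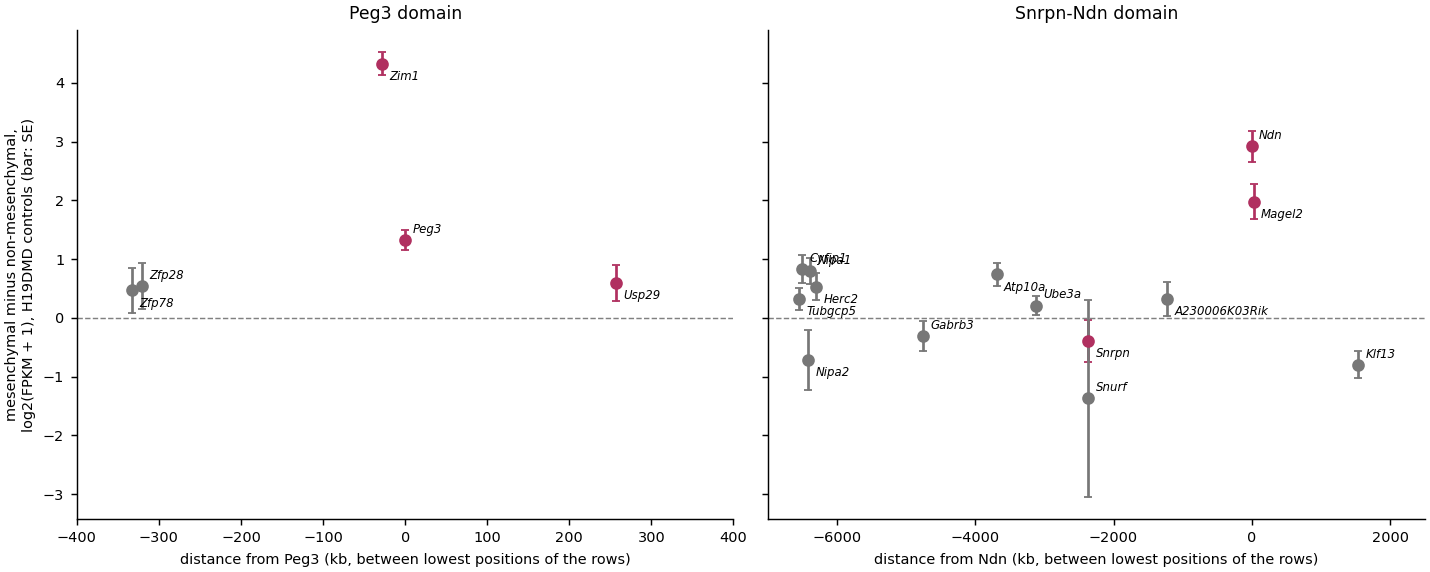
Difference between mesenchymal and non-mesenchymal H19DMD controls in log2(FPKM + 1), with SE bars, against the distance in kb, between the lowest positions of the deposited rows, from Peg3 (left) or Ndn (right) for tested members (red) and listed neighbours (grey). Ndn and Magel2, 29 kb apart, stand at 2.92 and 1.98, and Magel2 passed the filter only through the mesenchymal group. The listed neighbours lie between -1.37 and 0.83, as do the members Usp29 at 0.60 and Snrpn at -0.39. Usp29 is drawn at its partial row, 257 kb from Peg3, although Peg3 and Usp29 start 163 bases apart.

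Families and partners of the members were counted in the same fits, 22 tested of 28 listed. In controls 2 were higher and 1 lower in mesenchymal cells, and in mutants 1 was higher and 3 lower, with medians of 0.32 and -0.13. Beside the same shares of all features, the counts of 22 genes are not above the background. Of 5 MAGE family genes tested besides Ndn and Magel2, Maged2 was higher by 2.39 ± 0.32 in controls (SE, limma adjusted p = 0.0035) and by 2.03 ± 0.22 in mutants (SE, limma adjusted p = 0.000235). Magee1 was higher by 1.00 ± 0.25 in controls (SE, limma adjusted p = 0.0349) and did not pass in mutants at 0.51 ± 0.30 (SE, limma adjusted p = 0.255).

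Of 7 genes of Sm core proteins, which include Snrpb, the paralogue of Snrpn, 0 were called in controls, and Snrpd2 was lower in mutants at -0.95 ± 0.23 (SE, limma adjusted p = 0.0161). Mkrn1, a relative of Mkrn3, was lower in mesenchymal cells at -1.43 ± 0.35 in controls (SE, limma adjusted p = 0.032) and -0.97 ± 0.23 in mutants (SE, limma adjusted p = 0.0148). Frat2, a relative of Peg12, was lower in mutants at -0.91 ± 0.25 (SE, limma adjusted p = 0.025) and did not pass in controls at -1.10 ± 0.34 (SE, limma adjusted p = 0.0728). Trim27, Usp7 and Vps35, partners of Magel2, were not called, nor were E2f1, Siah1a and Traf2, partners of Ndn and Peg3. In the mutant comparisons and the interaction 0 of these genes were called. By limma, the number at an unadjusted p under 0.05 was 0 in mesenchymal cells, 1 in each non-mesenchymal comparison and 2 in the interaction, near the shares of all features at that p (4.76, 5.35, 5.28 and 6.35%).

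Imprinted genes of other domains were set beside the members. Of 20 tested in controls, 12 were higher and 2 lower in mesenchymal cells, with a median of 1.64, and of 19 tested in mutants 14 were higher and 3 lower, with a median of 1.62. Over all features tested, 12.4% were higher and 10.3% lower in controls and 13.5% higher and 15.1% lower in mutants, with medians of 0.080 and -0.032. Dcn, counted as higher in both genotypes at 6.43 ± 0.53 and 6.56 ± 0.39 (SE), is also among the mesenchymal markers of the sort check. Its place in these counts was thus given by the choice of markers. Plagl1, Cdkn1c and Dlk1, which are growth regulators, were at 5.17 ± 0.24, 4.97 ± 0.25 and 4.92 ± 0.24 in controls (SE, limma adjusted p = 0.000112 to 0.000148), near Zim1. Some others called higher in controls differed less, such as Igf2r at 2.02 ± 0.31 and Grb10 at 1.02 ± 0.19 (SE, limma adjusted p = 0.00625 and 0.0131). Gatm, a creatine synthesis gene, was lower at -3.86 ± 0.19 (SE, limma adjusted p = 0.000143). In the mutant comparisons and the interaction 0 of these genes were called, and by limma 1, 2, 2 and 3 had an unadjusted p under 0.05 in mesenchymal cells, in both non-mesenchymal comparisons and in the interaction, of 19, 20, 20 and 20 tested. The shares of all features at that p were 4.76, 5.35, 5.28 and 6.35%, and nothing is read from counts of 1 to 3 genes.

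The genes whose log2(FPKM + 1) followed a member most closely were found by Pearson's r over the 14 libraries of the H19DMD model. They were sought among named genes averaging 10 FPKM or more, 5872 for Peg3 and for Ndn and 5873 for Snrpn. For Peg3 these were Igdcc4 at 0.991, Zeb2 at 0.990 and Adcyap1r1 at 0.988, and for Ndn they were Adam19 and Procr at 0.981 and Pcdh7 at 0.980. These libraries share 2 fractions, so the values mostly reflect the step between them. For Snrpn the closest were lower, Lmo7 at 0.859, Cdc5l at 0.833 and Rad50 at 0.807. Over the 7 mesenchymal libraries alone, among 5718 genes for Peg3 and for Ndn and 5719 for Snrpn, the closest were others. They were Zfp783 at 0.967 for Peg3, Hells at 0.982 for Ndn and Nsmce4a at 0.991 for Snrpn, which is listed at 0 in 1 of these 7 libraries.

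Among the 10 pairs of Peg3, Zim1, Ndn, Magel2 and Snrpn, r over the 7 mesenchymal libraries ranged from -0.82 to 0.66. The highest was that of Peg3 and Zim1, and the lowest were those of Snrpn with Peg3 at -0.82 and with Zim1 at -0.72, where 1 Snrpn library is listed at 0. Ndn and Magel2, which are neighbours, were at 0.43. Pairs did not keep their values between sets of libraries: Zim1 and Ndn were at -0.27 in mesenchymal libraries, 0.88 in non-mesenchymal libraries of the same model and 0.11 in those of the Igf2 model. Peg3 and Zim1 were at 0.39 and 0.27 in the 2 non-mesenchymal sets. These values describe few libraries that share their sort and genotype groups.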

How the data were processed

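Per the labels' protocols, RNA of sorted pancreatic cells was extracted with RNeasy Micro columns, 2 ng were amplified (Ovation RNA-seq V2), and libraries were sequenced as single reads of 50 bp on an Illumina HiSeq instrument. The authors deposited FPKM values in 1 table per model, per the file headers. The submitters' processing notes name TopHat2 2.0.8, Cufflinks 2.2.1 and GRCm38, without their settings. Strand use in counting is not given in the sources used here, so overlapping antisense transcripts cannot be told apart from the members. Library names in the labels gave each column its sample, and 8 columns without values were not used.

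Limma 3.58.1 in R 4.3.3 was run on log2(FPKM + 1) (lmFit, then eBayes with trend; two-sided tests) on the groups compared, for features averaging 1 FPKM or more, with Benjamini-Hochberg adjustment at 0.05 over all features tested. The script was tested on simulated data. Exact permutation tests over libraries stand beside it. Every member was named in every comparison. Neighbour and family genes were to be named where they passed in a mutant comparison or overlapped a member, and otherwise up to 4 of the highest mean. Those called between fractions, the partners, Ube3a, Zfp28, Gatm and the growth regulators were picked for the text after their values were seen. Members and lists were chosen with earlier results of these data known. Sequences are from RefSeq (GRCm38.p6), where all 8 members matched. Alternatives were another pseudocount, filters, median-ratio scaling, a replicate block, longer features, no variance trend, 1 fit per table and leaving out each library.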

Additional observations from a re-analysis of the deposited data

Results flagged for a closer look

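In 24 groups of 4 libraries (8 genes in 3 groups), the lowest and highest libraries were examined. The distance to the nearest other, as a share of the group's whole range, was above 0.829 in 3 groups, the limit of Dixon's test at 95%. For normally distributed values chance exceeds this limit in about 1 of 20 groups, a rate that need not hold for values at or near 0. Snrpn in mesenchymal H19DMD mutants had a share of 0.853, because 1 library is listed at 0 and the other 3 are at 2.08 to 2.43 FPKM. Mkrn3 in non-mesenchymal Igf2 controls had a share of 0.943, with 1 library at 1.88 FPKM and the other 3 at 0.221 to 0.315. Peg12 in non-mesenchymal H19DMD mutants had a share of 1.000, with 1 library at 0.0958 FPKM and the other 3 listed at 0. With 3 libraries equal at 0, any value above 0 in the remaining library gives this share.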

How the results depend on the processing

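Across all alternatives run, 0 members were called in the mutant comparisons and the interaction, and leaving out each library in turn kept the number called between fractions at 4 in controls and 4 in mutants, or 3 and 3 without Magel2, which passed the filter only through the mesenchymal group. With no filter on low values 5 (Peg12 added) and 6 (Peg12 and Usp29 added) were called, and with a filter of 5 FPKM 3 and 3. With a replicate block the numbers were 4 and 4 between fractions and 0 elsewhere, and it changed no call of a member. Deviations of same-numbered libraries had r from -0.051 to 0.033 between mutants and controls. Between fractions r was 0.007 to 0.067, small but above 0 in every pair. The numbers were not taken as pairs, and this check does not decide whether same-numbered libraries came from 1 animal. Peg3 stayed between 1.19 and 1.40 in controls and 1.27 and 1.43 in mutants, and Zim1 between 4.20 and 4.48 and between 4.22 and 4.49. Magel2, being low, reached 4.93 and 4.63 at its highest, at a pseudocount of 0.1. That pseudocount also moved uncalled values of low members: Snrpn to -1.25 in mesenchymal H19DMD mutants, -1.62 between fractions in mutants and -1.10 in the interaction, and Usp29 to 1.11 between fractions in controls and -1.33 in Igf2 mutants. In Igf2 mutants leaving out 1 library gave 0.12 to 0.28 (Zim1), -0.42 to -0.03 (Peg3) and -0.70 to -0.26 (Usp29). Over all alternatives Snrpn was at -0.25 to 0.27 in Igf2 mutants, and Ndn at 0.03 to 0.46 in the interaction. Uncalled differences near 0 changed sign: with a replicate block Ndn was at -0.07 in mesenchymal and 0.04 in non-mesenchymal H19DMD mutants and Zim1 at 0.07 in the latter. With median-ratio scaling Zim1 was at 0.05 in mesenchymal H19DMD mutants and 0.12 in the interaction, and Magel2 at -0.30 in the interaction with a pseudocount of 0.1. Leaving out 1 library gave -0.08 to 0.36 (Ndn), -0.16 to 0.10 (Zim1) and -0.26 to 0.03 (Usp29) and -0.69 to -0.10 (Snrpn) in mesenchymal H19DMD mutants. It gave -0.27 to 0.04 (Ndn), -0.19 to 0.09 (Zim1) and -0.27 to 0.12 (Snrpn) in their non-mesenchymal cells, -0.48 to 0.02 (Ndn) in Igf2 mutants, and -0.05 to 0.12 (Peg3), -0.14 to 0.16 (Zim1) and -0.64 to 0.02 (Snrpn) in the interaction.

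Over all features, the 11 called in each mutant comparison became 7, 5 and 2 with a replicate block, and 1, 0 and 0 when features under 200 nt were left out. In 1 fit per table they became 5 and 1 in the H19DMD model. Leaving out 1 library gave 13 to 27, 14 to 34 and 14 to 37. The 2 of the interaction became 6 with a pseudocount of 0.1 or no filter, 0 without features under 200 nt, and 2 to 9 on leaving out 1 library. Between fractions 3785 and 4802 became 2448 and 3148 with a filter of 5 FPKM, which tests fewer features. With a replicate block they became 2660 and 4141. Median-ratio scaling moved the median of all features from 0.080 to -0.027 between fractions in controls and from -0.114 to -0.006 in the interaction, and the causes of the other shifts were not tested. The fit of all libraries of a table was not run for the Igf2 table, which holds only the 2 groups, nor for the interaction, where it is the same fit. Depth is unknown, so differences of members below 1 FPKM rest on the values alone.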
